A study of Mus musculus with 6 samples.

Results

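Cholesterol synthesis was read here through 9 genes, Hmgcs1, Idi1, Fdps, Fdft1, Sqle, Lss, Cyp51, Dhcr7 and Insig1. Every probe set that the array's annotation assigns to exactly 1 of these genes was taken. A probe set combines several short probes to the same transcript into 1 value. This gave 22 probe sets of the 45101 on the array, and 9 of 18194 annotated genes. Insig1 encodes a regulator of the pathway and not an enzyme, whereas the other 8 genes encode enzymes.

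RNA was measured on 6 Affymetrix mouse arrays. In 3 samples, NSP cells carried a lentivirus with an shRNA against REST, and in 3 they carried a lentivirus with a control shRNA. All cells came from dissociated mouse brains at stage E12.5, were passaged before infection, and were lysed 6 days after it. The abbreviation NSP is not spelled out in the labels, and REST is a repressor of neuronal genes. The labels give neither the strain nor the promoter that drives the hairpins. Nothing says that samples of the same group were separate cultures, so a p-value measures only how these samples scatter, and that scatter may be technical. The titles number the samples of each group 1, 2 and 3. With 3 arrays for each hairpin, precision is limited by their number.

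Cholesterol is built from acetyl-CoA. Hmgcs1 makes HMG-CoA, which is reduced to mevalonate and turned into isoprenoid units that Idi1 isomerises and Fdps joins into farnesyl diphosphate. Fdft1, also called squalene synthase, commits this product to sterols, Sqle epoxidises squalene, Lss closes the rings to lanosterol, Cyp51 removes a methyl group from lanosterol, and Dhcr7 carries out a late reduction that yields cholesterol. Sterol-poor membranes release the transcription factors called SREBPs, which switch these genes on, and Insig1 holds the SREBP escort protein in the endoplasmic reticulum when sterols suffice. The brain makes its own cholesterol because lipoproteins of the blood do not readily enter it, and dividing progenitors and myelinating glia are known for a high demand.

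Values are log2 signals, in which a difference of 1.00 means a doubling. The highest signal of 27 bacterial control probe sets to which no RNA of these cells should bind was 3.24, and it serves as a background level. Of the 22 probe sets, 21 had a mean above it, and the exception was the dimmer probe set of Fdps. Each gene is described in full by its brightest probe set, judged by the mean of the 6 arrays. The targeted transcript was lower with the REST hairpin: the brightest of 4 Rest probe sets read 8.63, 7.70 and 8.20 on REST shRNA arrays 1, 2 and 3, against 8.92, 8.75 and 8.90 on control arrays 1, 2 and 3, and the groups did not overlap. Its difference of -0.68 ± 0.25 (SE) had an unadjusted p of 0.0298 and an adjusted p of 0.9998 in limma. Neural progenitor markers were present on all arrays, with 10 of 10 above background. Markers of astrocytes (10 of 10) and of the oligodendrocyte lineage (10 of 11) were above background too. Fewer were above it for microglia (3 of 8) and for fibroblasts and vessels (6 of 10). Of all 45101 probe sets 32288 were above it, so such a count alone does not show that a cell type was present. Of 12 neuron markers 0 passed the adjusted threshold for the hairpin, and the median difference of the 12 was 0.61. An unadjusted p under 0.05 was found for 5, all higher with REST shRNA, beside 3.46% of all probe sets. In such bulk samples fewer cells of a type and less RNA per cell cannot be told apart.

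The genes of sterol synthesis did not differ detectably between the hairpins. The question is which transcripts change when REST is targeted, and none of the 22 probe sets passed an adjusted p of 0.05 in limma. This fit left the replicate numbers out, so differences between numbers count as scatter in the SEs and intervals given for the hairpin. Of all 45101 probe sets 0 passed, which is 0%. At an unadjusted p under 0.05 the count was 0 of 22 for the sterol genes and 3.46% of all probe sets. The differences ran from -0.40 to 0.17 with a median of -0.11, against a median of 0.01 over all probe sets, and 16 of the 22 were negative.

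Among the enzymes of the early, isoprenoid part of the pathway, Hmgcs1 read 12.93, 12.93 and 12.40 on REST shRNA arrays 1, 2 and 3, against 13.01, 13.03 and 12.48 on control arrays 1, 2 and 3. Both arrays numbered 3 were the low ones, and the groups overlapped. The mean was 12.75 ± 0.30 with REST shRNA and 12.84 ± 0.31 with control shRNA (SD, n = 3 each), a difference of -0.08 with a 95% interval of -0.64 to 0.47 in limma. This probe set read at most 13.03, where the highest signal of the whole table was 14.2, and it spanned 1.54-fold between its extreme arrays. The 4 dimmer probe sets of Hmgcs1 spanned 2.90-fold to 3.18-fold, each with its lowest value on REST shRNA array 3.

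Idi1, which interconverts the isoprenoid units, read 8.45, 10.13 and 7.94 on REST shRNA arrays 1, 2 and 3, against 9.22, 9.49 and 8.80 on control arrays 1, 2 and 3. The REST shRNA arrays held both the highest and the lowest value, with array 2 above and arrays 1 and 3 below every control array. The difference was -0.33 ± 0.54 (SE), and the other Idi1 probe set gave -0.30 ± 0.36. Fdps, which makes farnesyl diphosphate, read 6.73, 9.56 and 7.54 on REST shRNA arrays 1, 2 and 3, against 8.44, 8.64 and 6.89 on control arrays 1, 2 and 3. It had the widest span of the 9 genes, 7.12-fold between REST shRNA arrays 2 and 1, so its difference of -0.05 had a 95% interval of -1.89 to 1.80. On a linear scale this interval runs from 0.269-fold to 3.49-fold of control.

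In the squalene part, Fdft1 read 10.19, 10.87 and 9.96 on REST shRNA arrays 1, 2 and 3, against 10.56, 10.87 and 9.69 on control arrays 1, 2 and 3. The arrays numbered 2 were level with each other and the highest, and the difference between hairpins was -0.03 ± 0.37 (SE). One dim Fdft1 probe set, with a mean of 3.90 in REST shRNA and 3.73 in control arrays, was the only member probe set whose groups did not overlap, at a difference of 0.17, where 8.25% of all probe sets showed no overlap. Sqle, a rate-limiting oxygenase of the pathway, read 8.54, 9.99 and 8.29 on REST shRNA arrays 1, 2 and 3, against 9.27, 9.46 and 8.41 on control arrays 1, 2 and 3. REST shRNA array 2 again stood highest, and REST shRNA arrays 1 and 3 lay with control array 3 at the low end. The difference was -0.11 ± 0.49 (SE).

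In the sterol ring part, Lss read 9.52, 11.06 and 9.32 on REST shRNA arrays 1, 2 and 3, against 10.58, 10.76 and 9.34 on control arrays 1, 2 and 3. Cyp51 read 9.97, 11.30 and 9.71 on REST shRNA arrays 1, 2 and 3, against 10.75, 10.81 and 9.73 on control arrays 1, 2 and 3. The brightest probe sets of both lanosterol enzymes had the same order, with REST shRNA array 2 above control arrays 2 and 1. Below them came REST shRNA array 1, control array 3 and REST shRNA array 3. Sqle had this order too, whereas a dimmer Lss probe set was highest on control array 2 and lowest on REST shRNA array 1. Dhcr7, the late reductase, read 9.34, 10.74 and 9.43 on REST shRNA arrays 1, 2 and 3, against 9.999, 10.28 and 8.97 on control arrays 1, 2 and 3. It was the only one of the 9 genes with a positive difference, 0.09 ± 0.48 (SE), beside -0.26 ± 0.56 for Lss and -0.11 ± 0.48 for Cyp51. Insig1, the sterol-sensing retention protein, read 9.96, 10.77 and 9.54 on REST shRNA arrays 1, 2 and 3, against 10.43, 10.41 and 9.93 on control arrays 1, 2 and 3. Its difference was -0.17 ± 0.33 (SE), with the same overlap of the groups.

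For the 9 genes the adjusted p in limma was 0.9998 each. Exact two-sided permutation tests over the 6 arrays gave p between 0.5 and 1, where 3 against 3 arrays cannot go below 0.1. The 95% intervals of the brightest probe sets came from the fit without the numbers. They reached beyond a doubling in Idi1, Fdps, Sqle, Lss, Cyp51 and Dhcr7 on the lower or upper side. Those of the dimmer Hmgcs1 probe sets did too, the next brightest at -1.47 to 1.12, as did a dimmer Fdft1 probe set at -1.23 to 1.34. Changes of that size were therefore not excluded for these genes, and the intervals do not say which changes could have been called. Without REST shRNA array 2 the median over the 22 probe sets was -0.53, and 3 probe sets, both of Idi1 and a dim one of Cyp51, had an unadjusted p under 0.05, with an adjusted p of 0.717 or more. Without REST shRNA array 3 the median was 0.15.

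**Figure D1:**
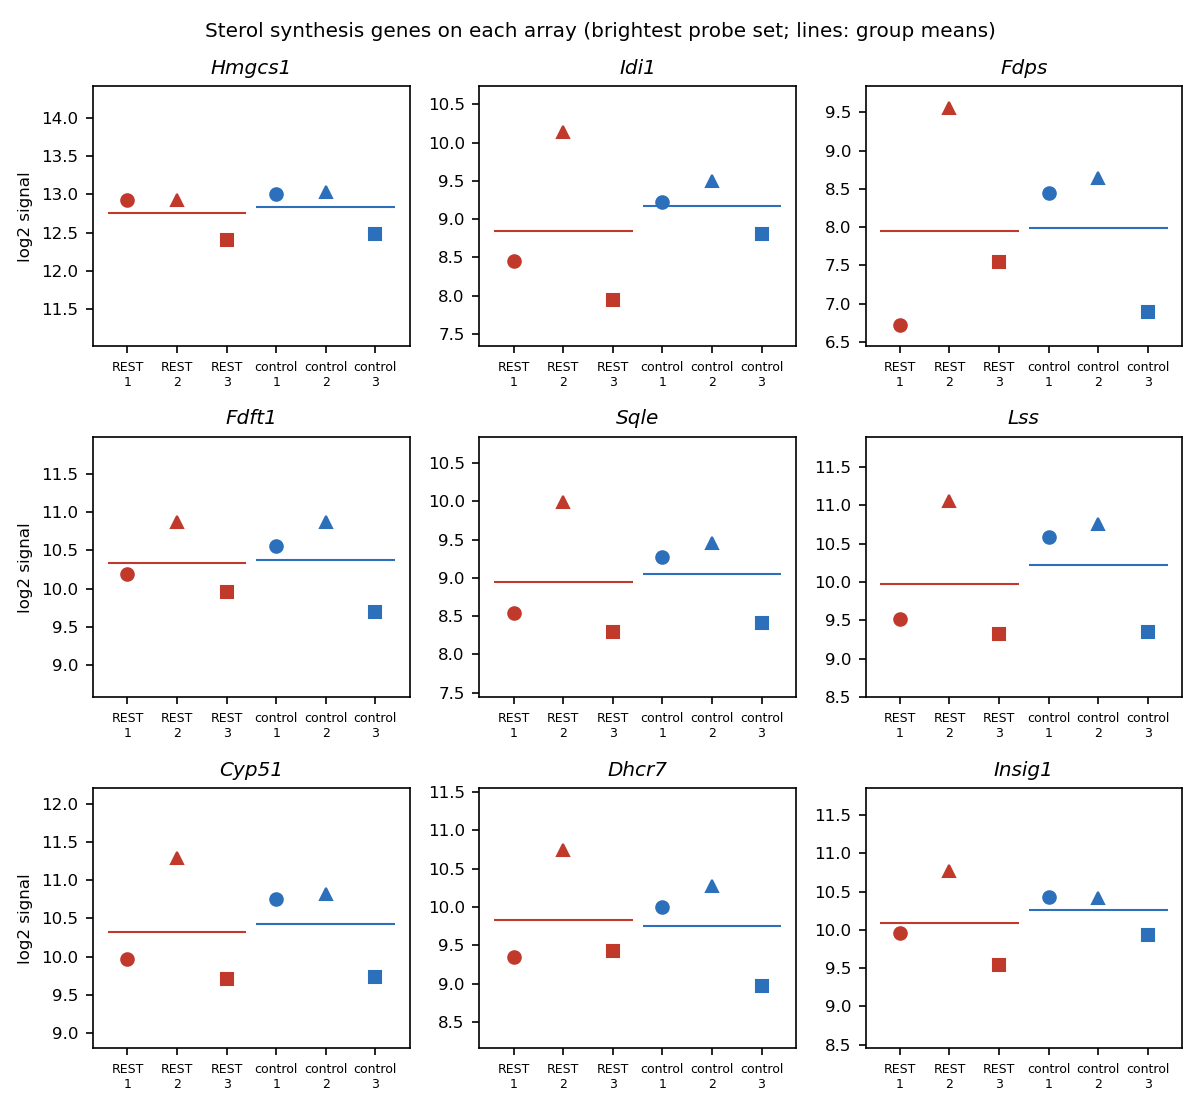
Log2 signal of the brightest probe set of each gene on REST shRNA arrays 1 to 3 (red) and control shRNA arrays 1 to 3 (blue), with a circle, triangle or square for replicate number 1, 2 or 3 and lines at the group means. Each panel spans the same number of log2 units, and both arrays numbered 3 lie low while REST shRNA array 2 is the highest in most panels.

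**Figure D2:**
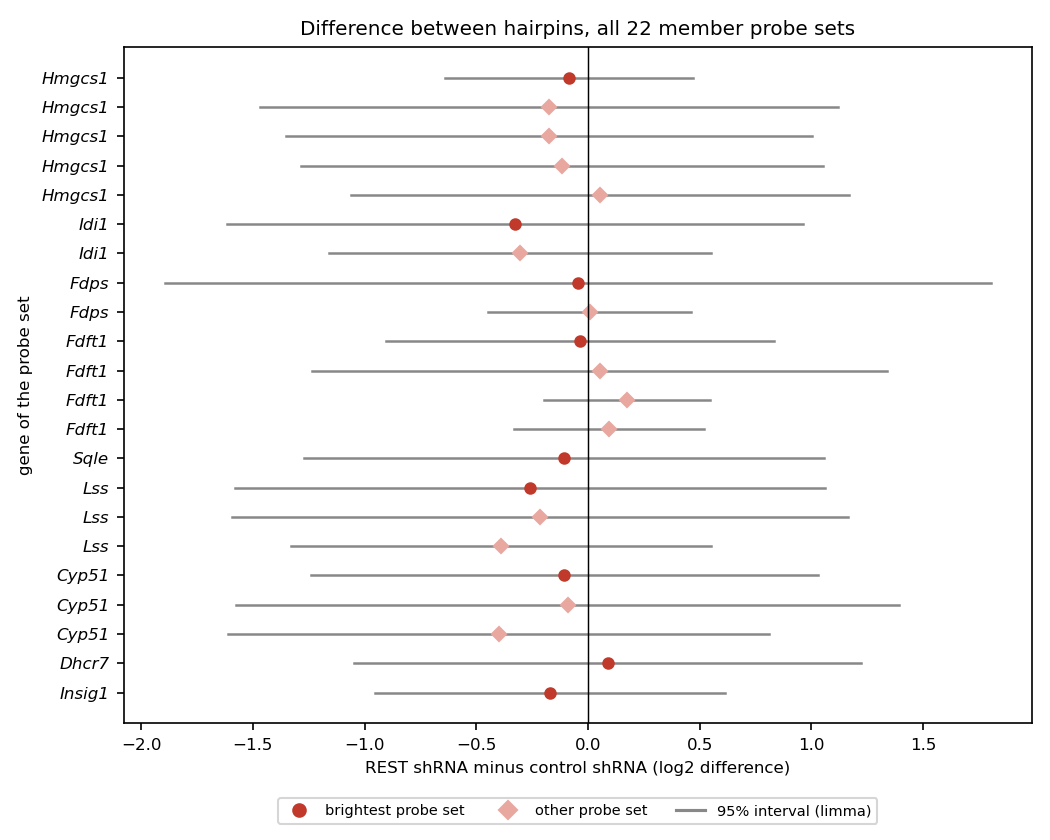
Log2 difference, REST shRNA minus control shRNA, of all 22 probe sets of the 9 genes, with the 95% interval of the limma fit (3 arrays per group). Every interval includes 0, and the differences lie between -0.40 and 0.17.

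The hairpin difference turned round between the replicate numbers. Among the arrays numbered 1, all 9 genes were lower with REST shRNA, with a median difference of -0.73 for the brightest probe sets. Among the arrays numbered 2 the median was 0.46 and 2 of the 9 genes were lower, and among those numbered 3 it was -0.02 with 6 lower. Over all probe sets of the table these medians were 0.00, 0.00 and 0.03. Fdps had the widest gap, at -1.71, 0.92 and 0.66 for numbers 1, 2 and 3. Idi1 followed with -0.77, 0.64 and -0.86, and then Lss with -1.07, 0.31 and -0.02. The brightest probe set of Hmgcs1 differed little in any of them, at -0.08, -0.10 and -0.07. Its dimmer probe sets ran from -0.58 to 0.01 for number 1, from -0.04 to 0.32 for number 2 and from -0.21 to -0.08 for number 3. Each number holds 1 array per hairpin, so whether the hairpin difference itself depends on the number was not tested.

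**Figure D3:**
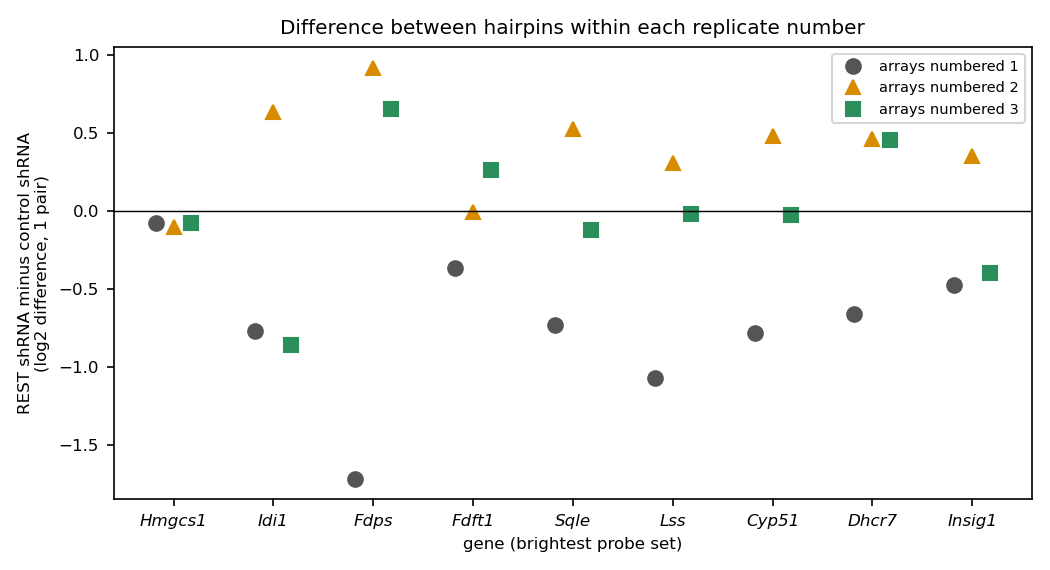
Log2 difference, REST shRNA minus control shRNA, within each replicate number (1 array per hairpin) for the brightest probe set of each gene. The arrays numbered 1 lie below 0 for all 9 genes, from -1.71 to -0.08, and those numbered 2 lie above 0 for 7.

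The sterol genes had different levels in the 3 replicate numbers by unadjusted p, although no member passed the adjusted threshold. In a limma fit with the hairpin as a term, an F test compared the 3 numbers, each with 2 arrays. For 14 of the 22 probe sets its unadjusted p was under 0.05, where 8.47% of all probe sets were. These probe sets read only 9 genes and move together, so they are not independent. None of the 22 passed an adjusted p of 0.05, and the smallest was 0.246, for a probe set of Hmgcs1. Among all probe sets, 3 passed, which is 0.00665%. They read Fos, Fosb and Zfp36, genes of the immediate early response that were named after their values were seen, with 3 minus 1 differences of 4.89, 5.51 and 3.88. Without control array 2 the count over the table was 1137, and 2 member probe sets passed, of Cyp51 and Idi1, with adjusted p of 0.0467 and 0.0419. Without REST shRNA array 2 it was 85 with 0 members. Without any of the other 4 arrays it was 0.

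All 9 genes had a lower mean in the arrays numbered 3 than in those numbered 1 or 2, and a higher mean in number 2 than in number 1. The median difference of the brightest probe sets was -0.53 for 3 minus 1, -1.33 for 3 minus 2 and 0.82 for 2 minus 1. Over all probe sets of the table the same medians were 0.01, 0.00 and 0.00. Fdps differed by -1.88 ± 0.63 (SE) between numbers 3 and 2, Lss by -1.58 ± 0.36, Idi1 by -1.44 ± 0.40, Sqle by -1.37 ± 0.33, Cyp51 by -1.33 ± 0.34 and Dhcr7 by -1.31 ± 0.34. The smaller differences were those of Fdft1, -1.05 ± 0.25, Insig1, -0.85 ± 0.28, and Hmgcs1, -0.54 ± 0.21. The dimmer Hmgcs1 probe sets differed by -1.29 to -1.53 between numbers 3 and 2. Between numbers 1 and 2 their differences were within ±0.22 for 3 of them and 0.81 for the dimmest, so the higher level in number 2 was not shared by all probe sets of this gene. The 2 minus 1 difference of the brightest Hmgcs1 probe set was likewise only 0.01.

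The 6 arrays did not fall by number alone. Averaged over the 9 genes, each centred on its own mean, the level was -0.44, 0.86 and -0.60 on REST shRNA arrays 1, 2 and 3, against 0.30, 0.46 and -0.59 on control arrays 1, 2 and 3. REST shRNA array 1 thus lay nearer to the arrays numbered 3 than to its own partner. REST shRNA array 3 and control array 3 were among the lowest 3 arrays for all 9 genes, and REST shRNA array 1 was for 8. REST shRNA array 2 was the highest array for 7 genes, and control arrays 1 and 2 were above the gene's mean for all 9. The SD over the 6 arrays had a median of 0.68 for the 21 probe sets above background, beside 0.31 for all 32288 such probe sets of the table. The profile of Cyp51 was closest to the mean of the 9 genes, with a root mean square distance of 0.052 log2 units over the 6 arrays, and Sqle was next at 0.068. Fdps, at 0.503, and Hmgcs1, at 0.417, were the farthest. Fdps had the widest and Hmgcs1 the narrowest span of the 9 genes.

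The promoters are given because the genes varied together between arrays. RefSeq promoter sequences of mouse assembly GRCm38.p6, from 250 bases before to 50 after a start, were matched for 6 of the 9 genes (Hmgcs1, Idi1, Lss, Cyp51, Dhcr7 and Insig1), with 8 starts in all. The word TCACNCCAC, the core of the sterol regulatory element that SREBPs bind, was searched on both strands and found in 1 promoter, that of Hmgcs1, while 1.24% of all 32851 promoters held it. The word CCAAT, the box of the factor NF-Y that works beside SREBPs, was found in at least 1 promoter of all 6 genes, in 6 of 8 starts, against 37.4% of all promoters. GGGCGG, a box for Sp-family factors, was found in 7 of 8 starts, against 35.7%. TTCAGCACC, the left part of the RE1 element that REST binds, was found in 0 of 8 and in 0.371% of all promoters. These words did not overlap each other in the promoters below, and a match or its absence is a description of these letters only.

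The Hmgcs1 promoter is shown because it holds the word TCACNCCAC. Other forms of the sterol element were not searched, so promoters without this word may still hold one. Those of Cyp51 and Lss are shown as examples, chosen after values were seen, of enzymes of successive steps whose 6 arrays stood in the same order. Each runs 5′ to 3′ along the gene's strand, and capitals mark TCACNCCAC and CCAAT or its reverse complement. They lie at chr13:119690101-119690400 (plus strand), chr5:4104648-4104947 (minus strand) and chr10:76531355-76531654 (plus strand) of GRCm38.p6.
Hmgcs1: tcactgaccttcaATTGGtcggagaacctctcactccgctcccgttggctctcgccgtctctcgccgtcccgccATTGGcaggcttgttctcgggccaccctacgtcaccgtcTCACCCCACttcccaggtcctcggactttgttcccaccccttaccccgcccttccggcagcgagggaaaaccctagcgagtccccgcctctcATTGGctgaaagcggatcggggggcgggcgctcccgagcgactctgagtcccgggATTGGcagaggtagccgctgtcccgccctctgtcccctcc
Cyp51: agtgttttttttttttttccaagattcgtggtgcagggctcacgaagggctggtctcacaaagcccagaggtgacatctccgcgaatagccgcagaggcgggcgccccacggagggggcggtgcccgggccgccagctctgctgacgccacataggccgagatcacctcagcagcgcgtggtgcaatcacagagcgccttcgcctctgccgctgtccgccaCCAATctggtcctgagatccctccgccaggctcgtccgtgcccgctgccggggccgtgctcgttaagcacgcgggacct
Lss: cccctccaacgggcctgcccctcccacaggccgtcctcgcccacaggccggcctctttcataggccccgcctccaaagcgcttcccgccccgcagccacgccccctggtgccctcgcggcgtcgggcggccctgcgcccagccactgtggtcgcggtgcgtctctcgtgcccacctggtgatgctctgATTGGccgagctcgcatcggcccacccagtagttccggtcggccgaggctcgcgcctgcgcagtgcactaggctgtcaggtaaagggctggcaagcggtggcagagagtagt
In Hmgcs1 the word TCACNCCAC begins 137 bases before the start. The CCAAT box begins 29 bases before the start in Cyp51 and, in reverse, 62 bases before it in Lss. Hmgcs1 holds 4 reversed boxes, of which 1 lies after the start.

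Other enzymes of sterol synthesis followed the 9 genes between arrays. Of 14 listed enzymes 11 were matched and the other 3 were not analysed here. With the hairpin 0 of 11 passed the adjusted threshold or an unadjusted p under 0.05, and their median difference was -0.01, with 5 positive and 6 negative. The smallest p belonged to Ebp, a sterol isomerase, at 0.33 ± 0.39 (SE), Hsd17b7, a ketosteroid reductase, at -0.12 ± 0.29, and Mvk, mevalonate kinase, at 0.17 ± 0.46. For the replicate number 5 of 11 had an unadjusted p under 0.05, beside 8.47% of all probe sets, and 0 passed the adjusted threshold. Msmo1, a sterol methyl oxidase, read 8.17, 9.37 and 7.49 on REST shRNA arrays 1, 2 and 3, against 8.68, 9.17 and 7.34 on control arrays 1, 2 and 3, a 3 minus 2 difference of -1.85. Tm7sf2, a sterol reductase, differed by -1.61. Number 3 was below number 2 for 10 of these 11 enzymes and below number 1 for 9, with Ggps1, which makes geranylgeranyl diphosphate, at 0.46 and 0.33 as the exception to both and Hsd17b7 at 0.33 as the other exception to the second. Ggps1 was named after its values were seen.

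The regulators of the pathway varied less. Of 12 genes of SREBP control and sterol uptake 10 were matched, and 0 passed for the hairpin, with a median difference of -0.06. Npc1, which exports cholesterol from lysosomes, had the smallest p at -0.38 ± 0.26 (SE), followed by Mbtps2, a protease that frees SREBPs, at -0.21 ± 0.22, and Stard4, a sterol carrier, at -0.48 ± 0.68. For the replicate number 1 of 10 had an unadjusted p under 0.05, near the share of 8.47% over all probe sets. It was Stard4, with 8.22, 9.77 and 7.30 on REST shRNA arrays 1, 2 and 3, against 9.47, 9.34 and 7.93 on control arrays 1, 2 and 3. Both arrays numbered 3 were the lowest, and REST shRNA array 2 was the highest. Srebf2, which encodes the SREBP of sterol genes, differed by -0.75 between numbers 3 and 2 and by -0.08 between 3 and 1. The median SD over arrays was 0.18 in this list, beside 0.66 for the 9 genes.

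Fatty acid synthesis, which SREBPs also drive, was split. Of 11 matched genes 0 passed for the hairpin, with a median difference of -0.19 and 9 of 11 negative, and Acly and Elovl5 had the smallest p at -0.28 ± 0.18 (SE) and -0.23 ± 0.14. Fasn, fatty acid synthase, was next at 0.36 ± 0.34. Across replicate numbers 3 of 11 had an unadjusted p under 0.05, beside 8.47% of all probe sets. Scd1, a desaturase, read 11.15, 11.27 and 9.49 on REST shRNA arrays 1, 2 and 3, against 11.48, 11.43 and 9.62 on control arrays 1, 2 and 3. It was low on the arrays numbered 3 alone, as was the brightest probe set of Hmgcs1, with a 3 minus 1 difference of -1.76 and a 2 minus 1 difference of 0.03. Acss2, which makes acetyl-CoA, had differences of -1.06 and 0.29.

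Several genes of sterol export and turnover were lowest on REST shRNA array 2. Of 10 listed genes 8 were matched, and 5 of the 8 had their lowest value there, namely Abca1, Abcg1, Nr1h3, Apoe and Cyp46a1. Abcg4 was highest on that array, Ch25h lay in the middle and Lcat was lowest on control array 3. The mean centred level of the 8 genes on REST shRNA array 2 was -1.16. Cyp46a1, Abcg4, Ch25h and Lcat were named after their values were seen. At the adjusted threshold 0 of 8 passed for the hairpin or the number. Abca1, a cholesterol exporter, read 9.90, 6.86 and 10.25 on REST shRNA arrays 1, 2 and 3, against 9.86, 9.46 and 10.54 on control arrays 1, 2 and 3. Apoe, which encodes the main apolipoprotein of the brain, read 10.30, 7.003 and 10.60 on REST shRNA arrays 1, 2 and 3, against 10.07, 10.19 and 9.72 on control arrays 1, 2 and 3. In both genes REST shRNA array 2 alone stood apart, and the hairpin differences of -0.95 ± 0.86 and -0.69 ± 0.89 (SE) became 0.12 and 0.46 without it. Nr1h3, a receptor that switches on export genes, differed by 0.21 ± 0.26. Across numbers 1 of the 8, Abca1, had an unadjusted p under 0.05, near the share of 8.47% over all probe sets. Its 3 minus 2 difference was 2.23, and Abcg1, another exporter, differed by 1.39.

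The mean level of the markers of some cell types moved between the same arrays, and that of others moved less. The mean of 9 matched genes of cycling cells, centred in the same way, was -0.02, 1.84 and -1.69 on REST shRNA arrays 1, 2 and 3, against 0.74, 0.84 and -1.70 on control arrays 1, 2 and 3. All 9 of them were lower in number 3 than in numbers 1 and 2. All 9 had an unadjusted p under 0.05 for the number, beside 8.47% of all probe sets. Their summed signal ran from 10.8 to 13.3 in REST shRNA and from 10.9 to 12.6 in control arrays. On REST shRNA array 1 they lay between the other arrays, while the 9 sterol genes lay close to the arrays numbered 3. The 10 astrocyte markers averaged 0.44, -1.40 and 0.28 on REST shRNA arrays 1, 2 and 3, against 0.42, 0.08 and 0.18 on control arrays 1, 2 and 3, with summed signals of 12.7 to 14.1 and 13.8 to 14.0. The 11 markers of the oligodendrocyte lineage averaged 0.33, -0.80 and 0.87 on REST shRNA arrays 1, 2 and 3, against -0.19, -0.38 and 0.17 on control arrays 1, 2 and 3. Their summed signals ran from 13.1 to 14.2 and from 13.5 to 13.8. By contrast, the mean of the neural progenitor markers spanned only 0.19 over the 6 arrays. Single markers of this list nevertheless moved, in opposite ways. Nes spanned 9.02-fold and was highest on REST shRNA array 2, whereas Prom1 spanned 3.09-fold and was lowest there. The span of the mean was 0.33 for microglia and 0.47 for fibroblasts and vessels. In the latter list Acta2 alone spanned 30.6-fold, from control array 1 down to REST shRNA array 1. Nes, Prom1 and Acta2 were named after their values were seen. The neuron markers averaged 0.33, 0.15 and 0.60 on REST shRNA arrays 1, 2 and 3. On control arrays 1, 2 and 3 they averaged -0.53, -0.36 and -0.19, each below every REST shRNA array. Of these 12 markers 9 were higher and 3 lower with REST shRNA, and 0 passed the adjusted threshold. Their mean itself was not tested. The Gapdh 3′ minus 5′ signal, a measure of RNA integrity, was 1.93, 1.93 and 2.25 on REST shRNA arrays 1, 2 and 3, against 1.94, 1.72 and 2.87 on control arrays 1, 2 and 3. The same measure for b-actin was 0.25, 0.37 and 0.32 on REST shRNA arrays 1, 2 and 3. On control arrays 1, 2 and 3 it was 0.34, 0.32 and 0.37, so b-actin did not set the arrays numbered 3 apart. The part of the cycling cells, of the glial markers and of RNA integrity in the levels of the sterol genes was not tested.

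**Figure D4:**
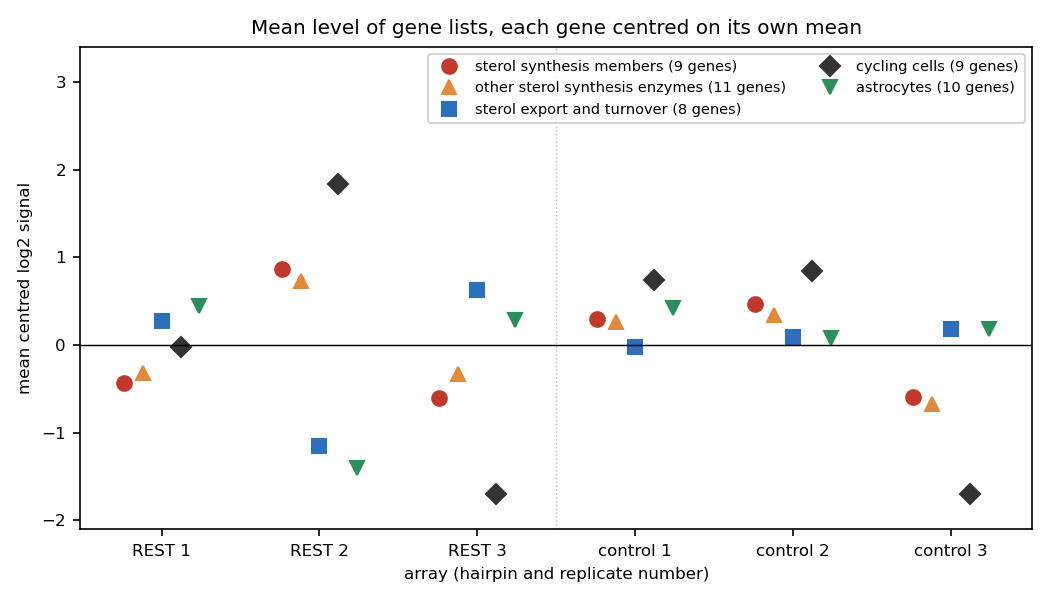
Mean centred log2 signal per array of the 9 sterol synthesis genes, 11 other sterol enzymes, 8 genes of sterol export and turnover, 9 markers of cycling cells and 10 astrocyte markers. Sterol and cycling genes are highest on REST shRNA array 2, at 0.86 and 1.84, where export genes and astrocyte markers are lowest.

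The genes whose arrays most resembled the mean profile of the 9 sterol genes were Pdia5, Cycs, 3300002P13Rik, Ahcy and Qrsl1. Likeness was the root mean square distance between centred log2 values over the 6 arrays, taken over 13823 genes above background outside the 9, and it is a description. Pdia5, of the protein disulfide isomerase family, lay at a distance of 0.080, Cycs, which encodes cytochrome c, at 0.086, and 3300002P13Rik at 0.088. Ahcy, which hydrolyses S-adenosylhomocysteine, lay at 0.105, and Qrsl1, a subunit of a mitochondrial amidotransferase, at 0.116, whereas the median gene lay at 0.638. Pdia5 read 5.68, 7.15 and 5.49 on REST shRNA arrays 1, 2 and 3, against 6.42, 6.52 and 5.62 on control arrays 1, 2 and 3, the order seen for Sqle.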

How the data were processed

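Total RNA of 6 samples was hybridised to 1-colour Affymetrix arrays. The deposited values were read as log2 signals per probe set from their range, 1.00 to 14.2. Background correction, summary and normalization by the authors: not given in the sources used here. No sorted value departed by more than 0.112 from the average of the 6 arrays, a near-common distribution under which a change of total RNA could not be seen, and no further scaling was applied. No array duplicated another (Pearson r from 0.955 to 0.993).

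Groups and numbers come from the titles. Gene names came from the platform annotation, checked against RefSeq of assembly GRCm38.p6 by gene number, where 34754 of 34958 probe sets with 1 gene were found and 0 symbols changed. Those with several genes (932) or none listed (9211) were tested but not named.

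limma 3.58.1 in R 4.3.3 (lmFit, eBayes, two-sided, Benjamini-Hochberg over all 45101 probe sets, no filter) compared the hairpins without further terms, and the numbers with the hairpin as a term. The steps were tested on simulated data. Deviations from group means correlated at 0.117, 0.282 and 0.402 within numbers 1, 2 and 3. Each exceeds 0.1, which meets the rule for paired numbers. The hairpin values printed nevertheless come from the unpaired comparison, and the fit with the numbers as a block is an alternative. Differences between the numbers thus widen the printed SEs and intervals where they are large. REST shRNA array 2 also correlated at 0.231 with control array 1. Exact tests used SciPy 1.17.1. The genes named were Rest, the 9 members, per further list the 3 genes with the smallest p for the hairpin and the 2 for the number, and the 5 most alike in profile. Members and lists were chosen with earlier results of these data known. Alternatives were the replicate block, scaling, filters, variance models, probe set choice, an unequal-variance test and leaving out arrays.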

Additional observations from a re-analysis of the deposited data

How the results depend on the processing

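The count of member probe sets called for the hairpin was 0 in limma under every alternative run, as was the count over all probe sets and over 40 further pathway genes, the replicate block and the unequal-variance test included. The unequal-variance test gave 1109 probe sets of the table an unadjusted p under 0.05. With the replicate block 1933 probe sets of the table had an unadjusted p under 0.05, against 1561 without it, and 0 members did, as without it. The block changed no call. With array weights 1 member probe set, of Lss, had an unadjusted p under 0.05 and the median of the 22 was -0.48. The median ran from -0.53 to 0.15 when arrays or numbers were left out, and the unadjusted count from 0 to 3. For the replicate number the calls over the table were 1 with quantile normalization, 12 with the filter on dim probe sets, 103 with a variance trend and 0 to 1137 when arrays were left out. Members called were 0 to 2, members at an unadjusted p 6 to 18, and 6 of 9 with 1 probe set per gene.

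No hairpin difference of the 9 genes kept its sign in every alternative. Median centring gave 0.0048 for Fdft1, and array weights gave -0.36 for Dhcr7, -0.052 for Ebp and -0.27 for Mvk. Leaving out arrays or numbers gave -0.26 to 0.092 for Hmgcs1, -0.97 to 0.12 for Idi1, -0.85 to 0.79 for Fdps, -0.38 to 0.21 for Fdft1, -0.63 to 0.22 for Sqle, -0.81 to 0.15 for Lss, -0.59 to 0.23 for Cyp51, -0.36 to 0.46 for Dhcr7 and -0.51 to 0.11 for Insig1. It gave -1.57 to 0.12 for Abca1, -1.48 to 0.55 for Apoe, -0.038 to 0.67 for Ebp, -0.33 to 0.26 for Hsd17b7, -0.35 to 0.54 for Mvk, -0.0060 to 0.44 for Nr1h3 and -1.15 to 0.081 for Stard4. The 3 minus 2 differences of the 9 genes stayed negative under the alternatives run, whereas other differences between numbers changed sign when arrays were left out. These were 3 minus 1, at -1.62 to 0.88 for Fdps, -1.03 to 0.088 for Dhcr7, -0.23 to 1.26 for Abca1, -0.042 to 1.52 for Abcg1 and -0.43 to 0.27 for Srebf2, and 2 minus 1, at -0.0043 to 0.021 for Hmgcs1, -0.00059 to 0.79 for Insig1, -1.66 to 0.37 for Abcg1, -0.058 to 0.13 for Scd1 and -0.065 to 0.65 for Tm7sf2. Beyond the fewer samples in these fits the cause was not tested.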
